A study of Homo sapiens with 9 samples.

Results

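The 9 genes described here encode DNA-binding proteins grouped as transcription factors of intestinal epithelial identity. OTX1 is the member least tied to normal gut. The genes were measured in HT-29 cells left alone or given ADP-heptose or flagellin. They were the caudal homeobox genes CDX1 and CDX2, the nuclear receptor HNF4A, the zinc finger genes KLF5 and GATA6, the ETS family genes ELF3 and EHF, the HMG-box gene SOX9 and the homeobox gene OTX1. They were found by symbol, each gene identifier once, and are 9 of the 62710 distinct identifiers in the count table. HT-29 is a line of human colorectal adenocarcinoma cells, labelled WT for genotype in all 9 libraries. The groups were non-stimulated cells, cells given 500 ng/mL ADP-heptose and cells given 500 ng/mL flagellin, the latter 2 for 2.5 h, with 3 libraries of poly(A)-enriched RNA each. All libraries came from this 1 line, and the study describes its RNA-sequencing values as coming from separate experiments.

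Intestinal identity rests on a small network of transcription factors. CDX2 and CDX1 specify the intestine against more anterior gut, and HNF4A drives the enterocyte program of absorption and lipid handling. KLF5 and SOX9 are features of the crypt, where KLF5 favors proliferation and SOX9 marks stem, progenitor and Paneth cells. GATA6 supports the gut lining from endoderm onward. ELF3 and EHF are ETS proteins restricted to epithelia, and ELF3 is also known as a gene that inflammatory cytokines switch on through NF-κB. OTX1 is best known from brain development and is the member least tied to normal gut. ADP-heptose is a bacterial sugar nucleotide that activates the cytosolic kinase ALPK1, and flagellin is the ligand of TLR5. Both routes lead to NF-κB.

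ELF3 and OTX1 were the tested members that changed by more than 2-fold, in opposite directions. For that reason the DNA before a RefSeq start of each is shown. The sequences are the 250 bases upstream of that start on GRCh38.p14, at chr1:202010337-202010586 for ELF3 and chr2:63050580-63050829 for OTX1. Both are on the plus strand and read 5′ to 3′. Both windows lie inside the gene spans given below, which begin further upstream, at chr1:202007945 for ELF3 and chr2:63050057 for OTX1. The DNA before those earlier annotated starts was not searched. Capitals mark matches to the NF-κB consensus, AP-1 (TGANTCA), the cyclic AMP response element (TGACGTCA) or TATAAA on either strand, with no match overlapping another.

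ELF3: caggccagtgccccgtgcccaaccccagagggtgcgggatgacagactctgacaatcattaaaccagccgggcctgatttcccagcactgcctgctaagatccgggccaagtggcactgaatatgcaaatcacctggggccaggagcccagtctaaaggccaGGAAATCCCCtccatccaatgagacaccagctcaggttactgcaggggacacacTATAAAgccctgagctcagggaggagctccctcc

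OTX1: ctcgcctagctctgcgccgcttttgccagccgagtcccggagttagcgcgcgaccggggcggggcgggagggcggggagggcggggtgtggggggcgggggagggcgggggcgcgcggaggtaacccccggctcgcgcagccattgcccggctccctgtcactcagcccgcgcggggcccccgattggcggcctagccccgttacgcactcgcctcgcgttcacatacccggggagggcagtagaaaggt

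The ELF3 window held an NF-κB consensus match, GGAAATCCCC, from 88 to 79 bases before the start, read on the strand opposite to the gene, and TATAAA from 34 to 29 bases before it. The OTX1 window held no match to any of the 4 motifs and was 75.2% G and C, against 58.4% in ELF3. Of 35116 RefSeq windows of this length, 5.21% held the NF-κB consensus, 6.57% AP-1, 1.65% the cyclic AMP response element and 10.7% TATAAA. RefSeq windows were matched for 7 of the 9 members, 10 windows in all, and not for CDX1 and SOX9. In the other 8 windows an AP-1 match, TGAGTCA, lay from 225 to 219 bases before the downstream HNF4A start (window chr20:44400989-44401238), and TATAAA lay from 194 to 189 bases before the upstream KLF5 start (window chr13:73054726-73054975). These matches describe the letters of the windows and say nothing of binding or of the DNA before other starts of these genes.

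The levels of a response gene and of cell type markers were checked first. Levels per length are given as RPKM, here counts per kilobase of merged exon after scaling to the effective library size. CXCL8, a chemokine and the study's main readout, ran from 1.54 to 2.64 RPKM without stimulation, from 11.5 to 12.0 after flagellin and from 416.7 to 444.8 after ADP-heptose. EPCAM stood at 366.4 RPKM or more in every library, and 8 of the 9 epithelial markers were at 19.4 RPKM or more in every library, while CDH17, an intestinal cadherin, stayed between 0.838 and 1.02. Of the 9 markers of leukocytes, endothelium and fibroblasts, CD3E and CDH5 had no counts, and all others except COL1A1 had at most 10 counts in any library. COL1A1 alone was present, at 1.27 to 1.94 RPKM, and was higher by 0.41 on the log2 scale after ADP-heptose (edgeR adjusted p = 0.0311). The summed level of the 3 fibroblast markers was thus almost all COL1A1. This sum was 1.27 to 1.502 RPKM without stimulation, 1.29 to 1.64 after flagellin and 1.72 to 1.95 after ADP-heptose, and its part in the results was not tested. Library totals ran from 30770448 to 58272772 counts, with the 3 ADP-heptose libraries the deepest. The third ADP-heptose library stood apart. Its log2 differences from the other ADP-heptose libraries had SDs of 0.363 and 0.371 over 11040 genes, against 0.109 to 0.165 within all other replicate pairs. Calls that lean on it are given with and without it.

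In non-stimulated cells the 9 genes spanned the whole range from abundant to absent. KLF5 was highest at 133.4 ± 5.88 RPKM (SD, n = 3) and EHF second at 87.0 ± 1.20. SOX9 followed at 22.2 ± 0.637 RPKM, ELF3 at 13.3 ± 0.146, HNF4A at 8.90 ± 0.301 and GATA6 at 8.77 ± 0.370. Near the bottom were OTX1 at 2.10 ± 0.0934 RPKM and CDX2 at 0.276 ± 0.0511, and CDX1 had no counts. Of the neighbors in this order, only HNF4A and GATA6 had libraries that overlapped. The crypt and ETS genes thus stood above the caudal genes in this line. After ADP-heptose ELF3 reached 36.2 ± 0.972 RPKM and overlapped SOX9, which was at 43.8 RPKM with an SD of 6.0. GATA6 then lay above HNF4A without overlap, at 10.2 ± 0.628 against 8.03 ± 0.723 RPKM. These levels depend on the exons that the annotation gives each gene, with 7191 merged exon bases for ELF3 and 3935 for SOX9. Before division by length ELF3 stood above SOX9. The mean normalized counts were 3862 against 3513 without stimulation and 10502 against 6939 after ADP-heptose.

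**Figure D1:**
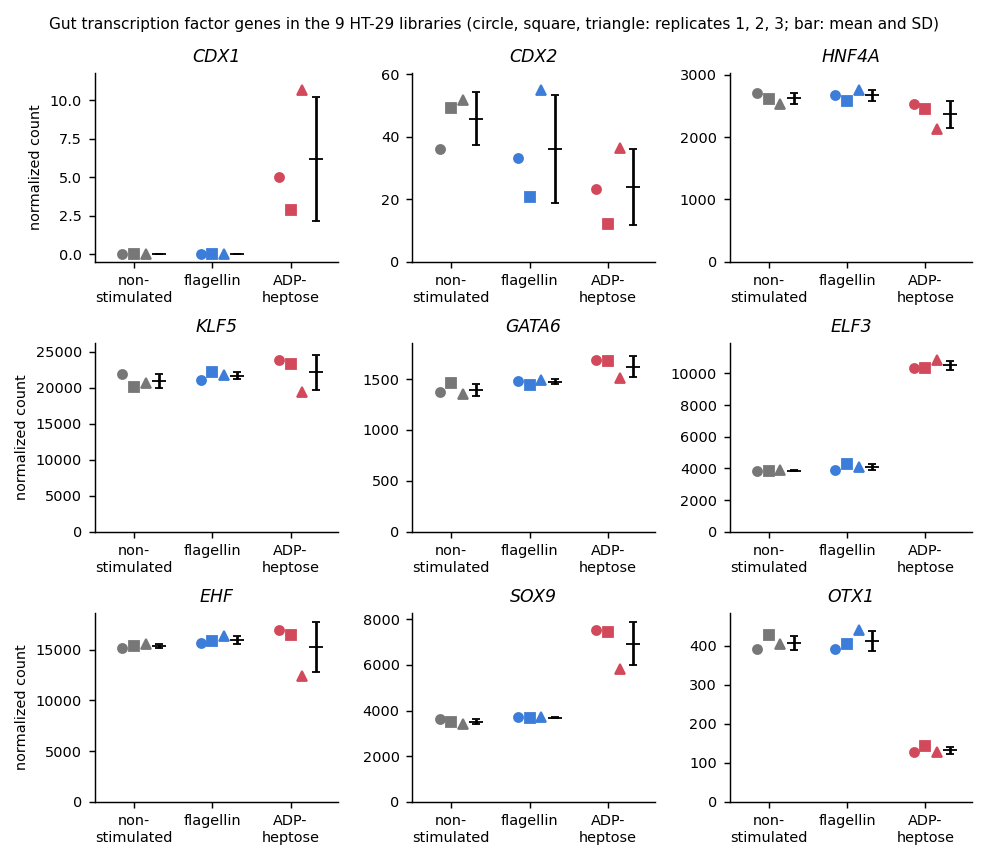
Normalized counts (vertical axes, linear) of the 9 genes in each of the 9 libraries, by group, with the mean and SD of 3 libraries beside the points. ELF3 and SOX9 were higher in all 3 ADP-heptose libraries and OTX1 lower, while the flagellin points lay near the non-stimulated points for these 3 genes, and the triangle (ADP-heptose replicate 3) was the lowest of its group for KLF5, EHF, SOX9, GATA6 and HNF4A.

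Whether ADP-heptose shifted these genes was asked by comparing its 3 libraries with the 3 non-stimulated ones. Of the 9 members, 8 had enough counts to be tested. ELF3 and SOX9 rose and OTX1 fell at an edgeR adjusted p under 0.05, with p-values adjusted over all 17412 genes tested. Over all genes 7.48% rose and 4.42% fell by the same rule, beside 2 higher and 1 lower among the 8. The members were chosen with earlier results of these data known, so the shares here and below are a description and no test. The 2 groups of libraries did not overlap for 5 of the 8 members, against 30.1% of all genes. The study describes its RNA-sequencing values as coming from 3 independent experiments, but the deposited labels do not say which libraries belong to which. The p-values measure the spread between these samples of 1 cell line. In RNA of whole cultures, fewer cells with a transcript and less of it per cell cannot be told apart.

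Among the 8 tested members ELF3, which switches on epithelial differentiation genes, rose the most. Its normalized counts were 3824, 3854 and 3907 in the non-stimulated libraries and 10336, 10343 and 10827 after ADP-heptose. Every stimulated library lay far above every control, and the groups did not overlap. The log2 fold change was 1.44 (standard error 0.06, 2.72-fold, 95% confidence interval 1.30 to 1.58, edgeR adjusted p = 1.2e-08). ELF3 lies at chr1:202007945-202017188 on the plus strand (GRCh38, GENCODE 29) and shares 664 exon bases with ELF3-AS1, an antisense gene on the other strand. ELF3-AS1 has no symbol in the count table and was looked at because of this overlap, after its values were seen. Its normalized counts rose from 366.2, 377.0 and 420.6 to 810.7, 795.0 and 929.6 (2.18-fold, log2 standard error 0.10, edgeR adjusted p = 9.0e-06). The strand setting of the counting is not given in the sources used here, so in the shared stretch reads of the 2 genes cannot be told apart. ELF3-AS1 held 5353 counts in all libraries together, against 60473 for ELF3. A sense intronic gene, AL691482.3, shares as many exon bases with ELF3 and had 86 counts in all.

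SOX9, the crypt and progenitor factor, rose to just under 2-fold. Its normalized counts were 3615, 3512 and 3413 without stimulation and 7520, 7455 and 5840 after ADP-heptose. The groups did not overlap, and ADP-heptose replicate 3 was the lowest of the stimulated libraries. The log2 fold change was 0.98 (standard error 0.09, 1.98-fold, edgeR adjusted p = 1.3e-05), and 1.10 without that library. SOX9 lies at chr17:72121020-72126420 on the plus strand. SOX9-AS1, annotated on the opposite strand and sharing no exon base with it, had 7 to 18 counts per library and did not pass, at −0.54 on the log2 scale (edgeR adjusted p = 0.424).

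OTX1 fell. Its normalized counts were 393.0, 428.6 and 404.3 in non-stimulated cells and 126.6, 142.1 and 128.1 after ADP-heptose. Every stimulated library lay far below every control, and ADP-heptose replicate 3 lay between the other two. The log2 fold change was −1.62 (standard error 0.11, 3.08-fold lower, edgeR adjusted p = 6.3e-07). OTX1 lies at chr2:63050057-63057836 on the plus strand.

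The rise of ELF3 was not shared by EHF, the closest ETS relative among the members, which has similar epithelial targets. EHF (chr11:34621093-34661057, plus strand) had normalized counts of 15178, 15375 and 15600 without stimulation and 16922, 16487 and 12434 after ADP-heptose. Its stimulated libraries lay on both sides of the controls (log2 fold change −0.01, 95% confidence interval −0.23 to 0.21, edgeR adjusted p = 0.962). Within each library, which needs no scaling, ELF3 had 0.252, 0.251 and 0.251 counts per EHF count in non-stimulated cells and 0.611, 0.627 and 0.871 after ADP-heptose. A like ratio of SOX9 to HNF4A counts was 1.33, 1.34 and 1.35 in non-stimulated cells and 2.97, 3.05 and 2.75 after ADP-heptose.

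The crypt factor KLF5 (chr13:73054976-73077542, plus strand) did not pass the test. Its normalized counts were 21952, 20155 and 20685 without stimulation and 23804, 23242 and 19339 with ADP-heptose. Replicates 1 and 2 lay above the controls and replicate 3 below them (log2 fold change 0.08, 95% confidence interval −0.10 to 0.26, edgeR adjusted p = 0.587).

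HNF4A (chr20:44355700-44434596, plus strand), the enterocyte factor, had normalized counts of 2711, 2619 and 2533 in controls and 2529, 2446 and 2125 after ADP-heptose. The groups did not overlap by a narrow margin, and the difference did not pass the test (log2 fold change −0.15, 95% confidence interval −0.32 to 0.02, edgeR adjusted p = 0.268). The counts join the transcripts of its 2 promoters and do not separate them. HNF4A-AS1 had 0 to 5 counts per library and was not tested.

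GATA6 (chr18:22169443-22202528, plus strand), a factor of the gut endoderm, had normalized counts of 1369, 1461 and 1351 in controls and 1684, 1678 and 1508 after ADP-heptose. All stimulated libraries lay above all controls, but the difference missed the threshold (log2 fold change 0.22, 95% confidence interval 0.06 to 0.38, edgeR adjusted p = 0.0798). Its antisense neighbor GATA6-AS1, which shares 240 exon bases with it and has the same limit on strand, fell from 224.9, 236.7 and 269.2 normalized counts to 172.5, 165.7 and 178.8 (log2 fold change −0.50, standard error 0.12, edgeR adjusted p = 0.0164). The values of the pair differed in sign, with only the antisense gene past the threshold. Its call was lost without non-stimulated replicate 3 (edgeR adjusted p = 0.0883) and without ADP-heptose replicate 2 (0.0520).

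The caudal genes were the lowest of the 9. CDX2 (chr13:27962137-27971139, minus strand) had 35, 44 and 48 counts in non-stimulated libraries and 28, 17 and 41 in the deeper ADP-heptose libraries. As normalized counts these were 36.1, 49.4 and 51.9 against 23.3, 12.1 and 36.5, and the groups overlapped slightly. The log2 fold change was −0.95 with a 95% confidence interval of −1.87 to −0.02 (edgeR adjusted p = 0.190), which did not pass.

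CDX1 (chr5:150166795-150184558, plus strand) had 0 counts in each of the 3 non-stimulated and the 3 flagellin libraries and 6, 4 and 12 counts in the ADP-heptose libraries. It was too low for the filter and was not tested. Set against a limit of 3 counts over the non-stimulated group, its 22 counts after ADP-heptose gave a 5.49-fold ratio. Only the control side has a counting limit in this ratio. The 22 counts were taken as exact and the spread between libraries was left out. Of these counts 12 came from ADP-heptose replicate 3, and the ratio was 3.57-fold without that library and 5.0-fold with library totals. Without the filter its edgeR adjusted p was 0.0478 against non-stimulated cells and 0.0673 against flagellin. DESeq2 gave unadjusted p-values of 0.0117 and 0.0133 and no adjusted ones. Even after ADP-heptose its level was 0.0872 ± 0.0570 RPKM (SD, n = 3), below that of CDH17.

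**Figure D2:**
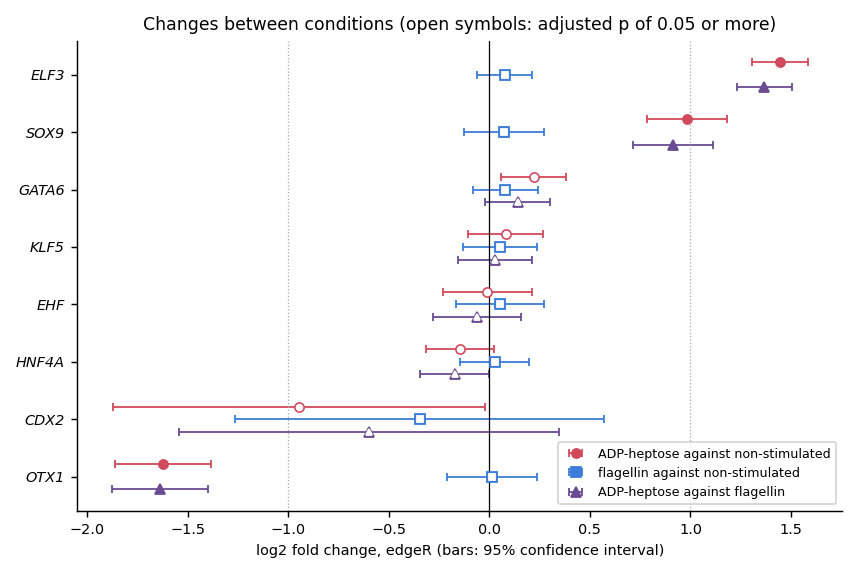
Log2 fold changes (horizontal axis) with 95% confidence intervals for the 8 tested genes in 3 comparisons, from the edgeR fit of all 9 libraries, with open symbols where the adjusted p was 0.05 or more and dotted lines at 2-fold. ELF3 at 1.44, SOX9 at 0.98 and OTX1 at −1.62 stood clear of 0 for ADP-heptose against non-stimulated cells, and all 8 flagellin intervals crossed 0.

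The third ADP-heptose library decided how many of the smaller differences passed. Without it the count rose from 2 to 5 members higher and from 1 to 2 lower. KLF5 then stood at 0.17 on the log2 scale (edgeR adjusted p = 0.0051), EHF 0.12 (0.0423), GATA6 0.27 (0.0017) and CDX2 −1.37 (0.0187). ELF3 was at 1.43 and OTX1 at −1.60 in that fit. HNF4A was at −0.07 with an edgeR adjusted p of 0.453. Another scaling also mattered for the small values. With library totals in place of TMM the median of all genes moved from 0.01 to −0.13, and every tested member shifted the same way. On that scale KLF5 changed sign to −0.05, while ELF3 was at 1.31, SOX9 at 0.85 and OTX1 at −1.76, each past the threshold. Of all genes called in this comparison 62.8% were higher with TMM, 32.7% with library totals and 47.6% with offsets for length and GC content.

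**Figure D3:**
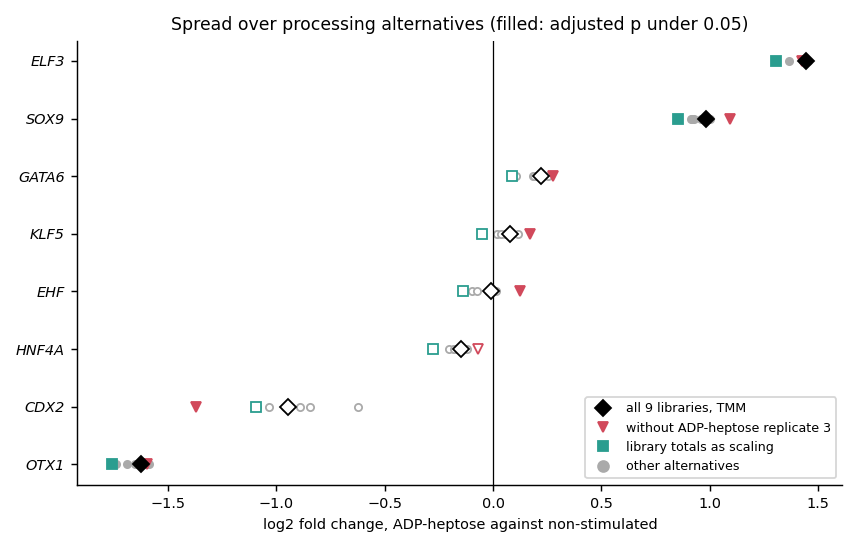
Log2 fold changes of ADP-heptose against non-stimulated cells (horizontal axis) for the 8 tested genes under the main processing (diamond), without ADP-heptose replicate 3 (red triangle), with library totals (green square) and under 15 other alternatives (grey), filled where the adjusted p was under 0.05. ELF3 ran from 1.31 to 1.45, SOX9 from 0.85 to 1.10 and OTX1 from −1.76 to −1.59, all filled, while KLF5, EHF, GATA6 and CDX2 were filled in 1 alternative each.

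Flagellin was compared with non-stimulated cells in the same way. No member passed in either direction by edgeR, none had an unadjusted p under 0.05, and DESeq2 also called 0. Over all genes 0.368% rose and 0.0115% fell by the edgeR rule, so few calls were to be had in this comparison at all. The libraries did not overlap for 2 of the 8 members, SOX9 and EHF, against 12.9% of all genes. ELF3 had normalized counts of 3868, 4253 and 4085 after flagellin, SOX9 3698, 3675 and 3694, and OTX1 392.9, 405.0 and 440.2. Beside the non-stimulated values above, these gave log2 fold changes of 0.08, 0.07 and 0.01. The 95% confidence intervals reached up to 0.21 for ELF3 and 0.27 for SOX9 and down to −0.21 for OTX1, which bounds the flagellin differences well inside those of ADP-heptose. For CDX2 the interval of −1.26 to 0.57 leaves a wide range.

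The stimuli were then compared with each other. ADP-heptose libraries were higher than flagellin libraries for ELF3 by 1.37 on the log2 scale (standard error 0.06, edgeR adjusted p = 3.0e-08) and for SOX9 by 0.91 (standard error 0.09, adjusted p = 3.4e-05). They were lower for OTX1 (log2 fold change −1.64, standard error 0.11, edgeR adjusted p = 8.3e-07). The other 5 tested members did not pass, with HNF4A nearest at −0.17 (edgeR adjusted p = 0.229). Without ADP-heptose replicate 3 GATA6 also passed, at 0.20 (edgeR adjusted p = 0.0272), which made 3 members higher. By the same rule 5.4% of all genes were higher and 2.76% lower, and the groups did not overlap for 5 of 8 members, against 27.0% of all genes. This comparison shares its ADP-heptose libraries with the comparison against non-stimulated cells.

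The genes most alike to the 3 called members were sought by Pearson's r of log2 CPM over the 9 libraries, among 12168 genes. For ELF3 these were FOSL1 (r = 0.998), an AP-1 subunit, PNRC1 (r = 0.998), a nuclear receptor coregulator, and ATF3 (r = 0.997), a stress-induced bZIP factor. For SOX9 they were KLF6 (r = 0.9995), a zinc finger relative of KLF5, SERTAD2 (r = 0.998) and the orphan nuclear receptor NR4A2 (r = 0.998). For OTX1 they were AXIN2 (r = 0.994), a Wnt pathway inhibitor and target, SPRY2 (r = 0.994), an inhibitor of receptor tyrosine kinase signaling, and ZNF703 (r = 0.992). Chosen for this likeness, the neighbors had to move in the direction of their member. Those of ELF3 and SOX9 rose after ADP-heptose, by 0.87 (NR4A2) to 4.02 (ATF3) on the log2 scale. Those of OTX1 fell, with log2 fold changes of −1.36, −0.71 and −0.90. These 9 points fall into the 3 groups and share library depth. The values of r thus describe a common step between groups and any shared shift of ADP-heptose replicate 3. KLF6, chosen for its likeness to SOX9, also rose more without that library, by 1.34 on the log2 scale against 1.21 with it. No r was computed without it.

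The other transcription factors of the gut and liver-type endoderm did not move one way. Of 27 listed, 21 were tested, 5 rose and 6 fell after ADP-heptose, beside 7.48% and 4.42% of all genes. The median of the 21 was −0.21 on the log2 scale, against 0.01 over all genes, and 9 fell without ADP-heptose replicate 3. The list was drawn up with earlier results of these data known. Among those that rose, KLF4, the zinc finger factor of goblet and surface cells, went from 988.1 to 1048 normalized counts in controls to between 1924 and 2128 (log2 fold change 1.02, edgeR adjusted p = 1.1e-06). VDR, the vitamin D receptor, rose by 0.83 on the log2 scale, FOXA3 by 0.82 and OVOL1, an epithelial zinc finger repressor, by 0.53. Among those that fell, HOXA13, the homeobox gene of the hindgut, went from 2222 to 2495 normalized counts in controls to between 1138 and 1379 (log2 fold change −0.90, edgeR adjusted p = 1.7e-05). FOXA1, a forkhead pioneer factor, had a log2 fold change of −0.75 and NR5A2, a nuclear receptor of crypt cells, one of −0.67. Each of these 7 genes kept its call in all 17 alternatives. FOXA3 and FOXA1, members of 1 family, thus moved in opposite directions. FOXA2, of the same family, also fell (log2 fold change −0.49, edgeR adjusted p = 3.0e-04). GATA4, NR1I2 and MAF had no counts in any library.

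The paralogs of the members were also split. Of 23 listed relatives in the KLF, ETS, SOX, OTX, CDX and GATA families, 19 were tested, 5 rose and 2 fell, beside the same 7.48% and 4.42% of all genes, and the median was 0.03 on the log2 scale. Without ADP-heptose replicate 3, 7 rose and 4 fell. The list of relatives was also drawn up with earlier results of these data known. ETS1, founder of the ETS family, rose the most, from between 1618 and 1714 normalized counts in controls to between 6255 and 8942 (log2 fold change 2.26, standard error 0.12, edgeR adjusted p = 1.0e-07). Its sister gene ETS2 fell (log2 fold change −0.53, edgeR adjusted p = 1.3e-04). The immediate-early type genes KLF6 and KLF10 rose by 1.21 and 1.20 on the log2 scale, and KLF9, a low gene with 67.6 to 83.3 normalized counts after ADP-heptose, by 1.04 (edgeR adjusted p = 0.0285). The call of KLF9 was lost without non-stimulated replicates 2 or 3 or ADP-heptose replicates 1 or 2, with edgeR adjusted p from 0.0587 to 0.112. GATA2, best known from blood progenitors, fell (log2 fold change −1.24, standard error 0.19, edgeR adjusted p = 7.0e-04). OTX2, CRX and CDX4, the nearest relatives of OTX1, CDX1 and CDX2 on the list, had no counts in any library.

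Of 27 genes of the differentiated enterocyte and colonocyte, 15 were tested, of which 1 rose and 2 fell, beside 7.48% and 4.42% of all genes. As with the other lists, earlier results of these data were known when it was drawn up. KRT20, a keratin of differentiated colonocytes, rose from between 20965 and 21679 normalized counts to between 27968 and 28258 (log2 fold change 0.40, edgeR adjusted p = 9.4e-04). DPP4, a brush border peptidase, fell by 0.27 on the log2 scale (edgeR adjusted p = 0.0290) and A1CF, a cofactor of APOB RNA editing, by 1.70 (adjusted p = 0.0449). Both passed in only 8 of 17 alternatives. DPP4 was lost without any 1 of the non-stimulated or flagellin libraries or ADP-heptose replicate 1 (edgeR adjusted p from 0.0513 to 0.125). A1CF was lost without non-stimulated replicates 2 or 3, any flagellin library, or ADP-heptose replicates 2 or 3 (from 0.0672 to 0.197). A1CF had 3.56 to 32.5 normalized counts in non-stimulated and ADP-heptose libraries. VIL1, the brush border protein villin and a known CDX2 target, stood at −0.0049 on the log2 scale (edgeR adjusted p = 0.967), and CDH17, another such target, at −0.04 (adjusted p = 0.891). FABP2, ALPI and MEP1A, genes of the mature small intestine, had no counts in any library. The median over the 15 genes was −0.0041 on the log2 scale.

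After flagellin none of the 3 lists had a gene past the threshold by edgeR in either direction. At an unadjusted p under 0.05 the gut factors had 2 genes higher, KLF4 and VDR, the relatives 1, ETS1, and the differentiation genes 1 lower, A1CF. DESeq2 called 1 of these, ETS1, whose edgeR log2 fold change was 0.59 (adjusted p = 0.0903), and 8.6e-10 without ADP-heptose replicate 3. Against flagellin, ADP-heptose gave 5 gut factors higher and 6 lower, 4 relatives higher and 2 lower, and 1 differentiation gene higher, KRT20. Without ADP-heptose replicate 3 these were 5, 8, 7, 4 and 2, and without flagellin replicate 3 KRT20 and the gut factor OVOL1 were lost (edgeR adjusted p = 0.0558 and 0.0596). No differentiation gene was lower by edgeR or DESeq2, and 1, DPP4, had an unadjusted p under 0.05.

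**Figure D4:**
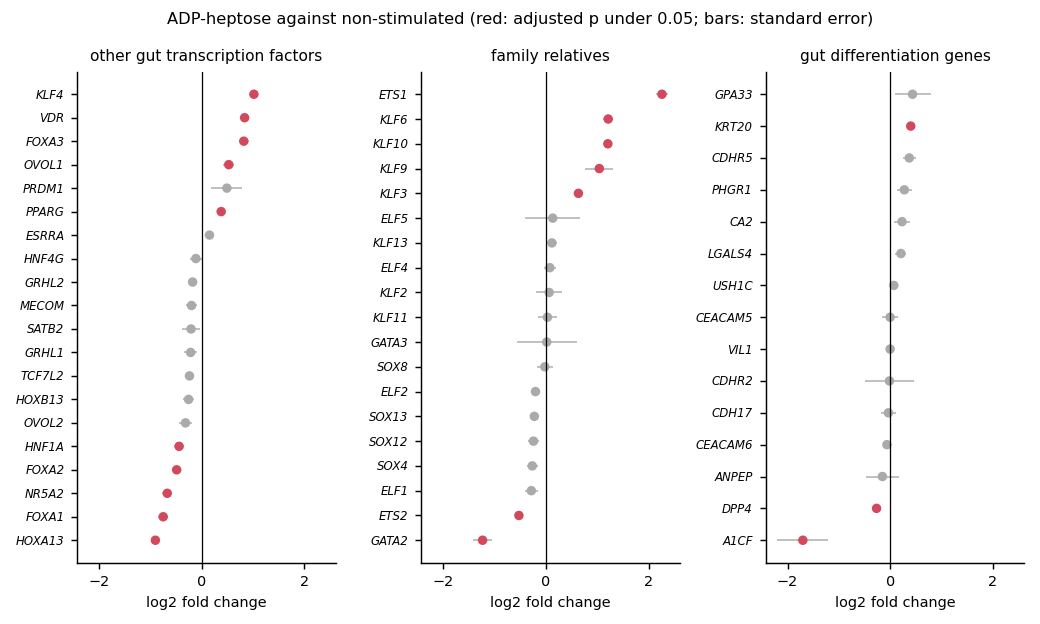
Log2 fold changes of ADP-heptose against non-stimulated cells (horizontal axis) with standard errors for 20 of the 21 tested gut factors and all tested genes of the other 2 lists, red where the edgeR adjusted p was under 0.05. Red points lie on both sides of 0 among the gut factors and the 19 relatives, from ETS1 at 2.26 to GATA2 at −1.24, and 3 of the 15 differentiation genes are red.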

How the data were processed

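RNA of 9 HT-29 libraries was sequenced as paired reads by a service provider, and the authors aligned the reads with HISAT2 and assigned them to genes with featureCounts. Deposited were raw counts, 1 column per library. Versions, genome build, annotation, strand setting and the treatment of reads mapping to several places are not given in the sources used here. Of 62972 lines, 62710 identifiers were distinct, and 232 repeated with identical counts were used once. Positions and exon lengths came from GENCODE 29 (92.9% of identifiers found) and promoter windows from RefSeq on GRCh38.p14.

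All 9 libraries were entered into 1 model in edgeR 4.0.16 (R 4.3.3; TMM, filterByExpr defaults, robust quasi-likelihood F test). It tested 17412 genes, and p-values were Benjamini-Hochberg adjusted over all of them. For normalized counts, each count was scaled by its library's effective size to the geometric mean size. A gene was called at an adjusted p under 0.05. Groups came from the labels, dose and time from the study's methods. The members and lists were chosen with earlier results of these data known. Called genes of a list were named, up to 4 per direction by size of change. 1 listed gut factor is counted but its values are not reported here. Other list genes were named after their values were seen. The fits were tested on simulated data. Alternatives were DESeq2's size factors, library totals, the DESeq2 1.42.0 test, no filter, a mean of at least 10 counts, fits of the 6 libraries compared, a replicate block and the omission of each library. Offsets for transcript length and GC content were added after seeing the data. Figures were drawn with matplotlib 3.10.9. The study's model for 3 conditions was not run.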

Additional observations from a re-analysis of the deposited data

How the results depend on the processing

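The calls of ELF3, SOX9 and OTX1 against non-stimulated cells and against flagellin kept direction and threshold in all 17 alternatives. For ADP-heptose against non-stimulated cells, omitting single libraries gave 2 to 5 members higher and 1 to 2 lower, the upper values without ADP-heptose replicate 3. CDX1, with 22 counts in all, was below the filter. The causes of the changes below were not tested.

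With library totals, 10 gut factors and 6 relatives were lower than without stimulation, and against flagellin 4 relatives were lower and 0 differentiation genes higher and 1 lower. KLF5 turned to −0.0505 against non-stimulated cells and −0.0858 against flagellin, and OTX1 after flagellin to −0.002. Without the filter 4 relatives were lower and 2 differentiation genes higher than without stimulation, 1 relative was higher after flagellin, and 124 genes in all were called after flagellin. In fits of 6 libraries 0 differentiation genes were lower than without stimulation and 0 higher than after flagellin, while after flagellin 1 relative was higher and 143 genes in all were called. The DESeq2 test called 1 relative higher after flagellin. With the length and GC offsets 5 relatives were lower than without stimulation, 1 was higher after flagellin, and against flagellin 4 relatives and 1 differentiation gene were lower and 2192 genes in all were called. EHF turned to 0.0153 against non-stimulated cells, and after flagellin HNF4A turned to −0.0024 and OTX1 to −0.0376.

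Omitting single libraries gave, against non-stimulated cells, 2 to 4 relatives lower, 1 to 2 differentiation genes higher, 0 to 1 lower (2 with all libraries) and 1317 to 3288 genes in all, with EHF from −0.0966 to 0.123. After flagellin it gave 0 to 1 relatives higher and 38 to 171 genes in all, with HNF4A from −0.0011 to 0.051 and OTX1 from −0.0402 to 0.0486. Against flagellin it gave 4 to 7 relatives higher, 2 to 4 lower, 0 to 2 differentiation genes higher and 912 to 2721 genes in all, with KLF5 from −0.0281 to 0.128 and EHF from −0.142 to 0.0778.

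With a replicate block 2 members were higher and 1 lower in both ADP-heptose comparisons and 0 differentiation genes were lower than without stimulation, where 1587 genes in all were called against 2072. The numbers were not taken to pair the samples, because the study's methods name no pairing for these libraries. Deviations of equally numbered libraries from their group means correlated from −0.38 to 0.22 over 12168 genes. With ADP-heptose replicate 3 far from its group, these values cannot decide whether the samples were paired.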
